A study of Mus musculus with 2 samples.

Results

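Paired windows are places in the genome where exactly 2 ERRα binding windows lay close together with no further one nearby. They were found in 1 list of ERRα peaks from mouse C2C12 myotubes: windows were ordered along each chromosome, neighbours no more than 10 kb apart (from the end of a window to the start of the next) were joined, and every run of exactly 2 windows was kept. This gave 213 pairs with 426 of the 3225 windows, or 13.2% of the list. The other windows were 2413 single windows, 221 windows in 65 runs of 3 to 5, and 165 windows in 8 runs of more than 5. Runs of 2 made up 213 of the 286 runs that held more than a single window.

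The C2C12 line is an established mouse myoblast line whose cells fuse into myotubes when serum is lowered. The cells of both groups were kept for 72 h in medium with 2% horse serum, then infected for 48 h with an adenovirus that carries Flag-tagged PGC-1α. The groups were an immunoprecipitate made with a rabbit monoclonal antibody against ERRα (1 library) and whole-cell extract, which is input DNA taken without antibody (1 library). No group without PGC-1α over-expression was included, so the windows describe ERRα binding in the presence of excess coactivator. With 1 library a group there is no replicate check, and pairs are not replicates of an experiment. The list gives positions alone, with no read count, height or score, and how deeply either library was sequenced is unknown.

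ERRα is an orphan nuclear receptor, the product of the gene Esrra. It binds DNA through a nuclear receptor half-site with a short extension on its 5′ side, as a monomer or a dimer. In muscle it regulates genes of mitochondrial respiration and of fatty acid and glucose oxidation. PGC-1α, the product of Ppargc1a, does not bind DNA itself: it docks on ERRα and other factors and recruits the enzymes that open chromatin and start transcription. Regulatory elements often hold several binding sites for such factors, either next to each other in 1 enhancer or promoter, or in separate elements of the same locus. The distance within a pair is the measurement that bears on these arrangements. A broad region of binding that is listed as 2 windows cannot be told apart from 2 sites in these data.

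All windows were 200 bp wide and their starts fell on multiples of 25 bp, so distances are resolved to 25 bp. Distances within a pair are given from start to start. Positions are on the mm9 build and counted from 1. The pairs were chosen by the measured positions of the windows, so the number of pairs and their distances are a description of the list, and no test was made. Shares carry exact (Clopper-Pearson) 95% intervals, and medians carry the 95% binomial interval of their order statistics. These intervals cover counting alone and treat pairs as independent.

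More of the pairs were close together than far apart. The distance within a pair ran from 250 bp to 10000 bp, with a median of 1750 bp (95% interval 1250 to 2250 bp) and quartiles of 800 and 5625 bp. The windows started under 1 kb apart in 76 of the 213 pairs (35.7%, 95% interval 29.3 to 42.5%), and under 2 kb apart in 113 (53.1%, 46.1 to 59.9%). A further 40 pairs lay 2 to 5 kb apart. The remaining 60 pairs (28.2%, 22.2 to 34.7%) lay 5 kb or more apart. The mean of 3156 bp was well above the median, because the wide pairs draw it out.

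The number of pairs fell steeply over the first 5 kb of distance. In steps of 1 kb, the number of pairs was 76 under 1 kb, 37 from 1 to 2 kb, 20 from 2 to 3 kb, 13 from 3 to 4 kb and 7 from 4 to 5 kb. From 5 to 8 kb the steps held 11, 13 and 6 pairs. The step from 8 to 9 kb held 21 pairs, more than any other step beyond 2 kb, and the step from 9 to 10 kb held 8. Of these 21 pairs, 9 came from chromosome 14 and are described below; without them that step held 12. Over all neighbouring windows of the list, joined or not, there were 27 distances from 8 to 9 kb, 11 of them from chromosome 14, and 19 from 9 to 10 kb. From 10 to 11 kb there were 12, of which 1 was a pair, because the joining limit runs from end to start. Farther out there were 13 from 11 to 12 kb and 10 from 12 to 13 kb. Neighbours just outside the limit were thus fewer than those just inside it, but not rare.

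**Figure D1:**
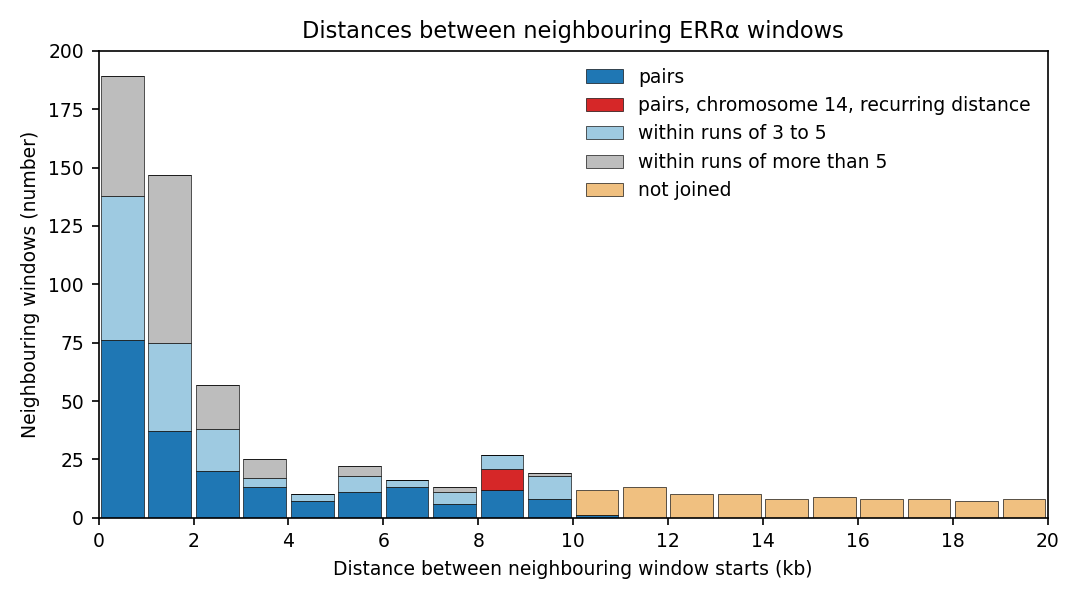
Number of neighbouring ERRα windows by the distance between their starts, in steps of 1 kb up to 20 kb; colours stack pairs (the chromosome 14 pairs of like distance in red), distances inside longer runs, and neighbours too far apart to be joined. The first step holds 76 pairs, the counts fall to 7 from 4 to 5 kb, and the step from 8 to 9 kb holds 21 pairs, 9 of them red.

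Close pairs came at many different spacings. In steps of 100 bp the pairs numbered 4 from 200 to 300 bp, then 12, 10, 10, 7, 8, 16 and 9 in the steps up to 1000 bp, and 5 from 1000 to 1100 bp. The fullest of these steps, with 16 pairs, ran from 800 to 900 bp. The most frequent distance was 800 bp, with 9 pairs on 7 chromosomes, followed by 475 bp with 7 pairs on 6 chromosomes and 1050 bp with 5 pairs on 5 chromosomes. The 213 pairs took 135 different distances. Each of the 20 chromosomes with a pair held at least 1 pair under 1 kb.

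The 5 closest pairs were nearly touching. On chromosome 9 the windows at chr9:75738776-75738975 and chr9:75739026-75739225 started 250 bp apart, which leaves 50 bp between them. The same distance separated chr11:6572876-6573075 and chr11:6573126-6573325. On chromosome 4 the windows from 53731051 and from 53731326 started 275 bp apart, as did those on chromosome 16 from 23030851 and from 23031126. The fifth was on chromosome 13, from 99172276 and from 99172576, at 300 bp. No 2 windows of the list overlapped, so these pairs sit at the lower end of what the list could show. They lay in different surroundings. The nearest window outside the pair was 46.7 kb away for the pair on chromosome 11 and 76.0 kb away on chromosome 16, but 607.7 kb away on chromosome 9.

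At the other end, the widest pair spanned chr10:79037176-79047375, with starts 10000 bp apart. The next were on chromosome 6 from 128042726 to 128052800 (9875 bp), chromosome 8 from 74751526 to 74761075 (9350 bp), chromosome 11 from 116704776 to 116714325 (9350 bp) and chromosome 4 from 138686951 to 138696450 (9300 bp). The first 3 of these lie just inside the limit, with 9800, 9675 and 9150 bp between the windows. The 3 smallest gaps just outside it were 10025 bp on chromosome 4 and 10075 bp on chromosomes 5 and 17. Only the gap on chromosome 17, from 46048800 to 46058876, separated single windows that would have formed a pair under a slightly wider limit. The other 2 lay beside longer runs. The pair at the median distance, 1750 bp, lay on chromosome 12 from 88172976 to 88174925 and had another window 14.7 kb away.

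Distances between neighbours inside the runs of 3 to 5 windows had a shorter upper range than those within pairs. Their upper quartile was 2906 bp, against 5625 bp in pairs, while the lower quartiles were 825 and 800 bp. Their median was 1362.5 bp (95% interval 1125 to 1825 bp, 156 distances), against 1750 bp in pairs, and 39.7% (32.0 to 47.9%) were under 1 kb, against 35.7% of pairs. Distances of 5 kb or more made up 19.9% (13.9 to 27.0%) in these runs and 28.2% in pairs. Both populations were cut at the same 10 kb. The intervals overlap for the medians and for each share, and no test of the difference was made.

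Pairs were found on every chromosome but Y. Of the 213 pairs, 210 were on the 19 autosomes, 3 on X and 0 on Y, where the list has 2 windows in all. Over all chromosomes, pairs made up 8.11% (95% interval 7.10 to 9.22%) of the 2626 runs of 1 or 2 windows. Each of the 21 chromosomes had a 95% interval that held this value. Chromosomes 2 and 15 held the most pairs, 20 each. Of the chromosomes with at least 20 such runs, chromosome 19 had the highest share, 9 pairs in 75 runs (12.0%, 5.64 to 21.6%). The lowest was on chromosome 18, with 1 pair in 66 runs (1.52%, 0.038 to 8.16%). Chromosome 7 was also low, with 4 pairs in 115 runs (3.48%, 0.96 to 8.67%).

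Median distances within pairs varied between chromosomes, and no test of this was made. On chromosome 4, 11 of the 16 pairs were under 1 kb and the median was 850 bp. On chromosome 1, 3 of the 15 pairs were under 1 kb, 8 were 5 kb or wider, and the median was 5325 bp. The chromosome 2 pairs ran from 350 to 9175 bp around a median of 1300 bp. Of the chromosomes with pairs, 13, 17 and 18 held no pair of 5 kb or more, among 9, 6 and 1 pairs. Most chromosomes held too few pairs to place their median closely. When each chromosome was split midway between its first and last window, 51.9% of the 210 autosomal pairs (44.9 to 58.8%) and 56.7% of the 2383 autosomal single windows (54.7 to 58.7%) lay in the distal part. On chromosome 4 the distal part held 13 pairs and 112 single windows, and the proximal part 3 pairs and 52 single windows. On chromosome 14 it was the proximal part that held more, with 11 of 12 pairs and 53 of 92 single windows. Those 11 include the 9 pairs of like distance described below, which also lower the distal share of the autosomal pairs.

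**Figure D2:**
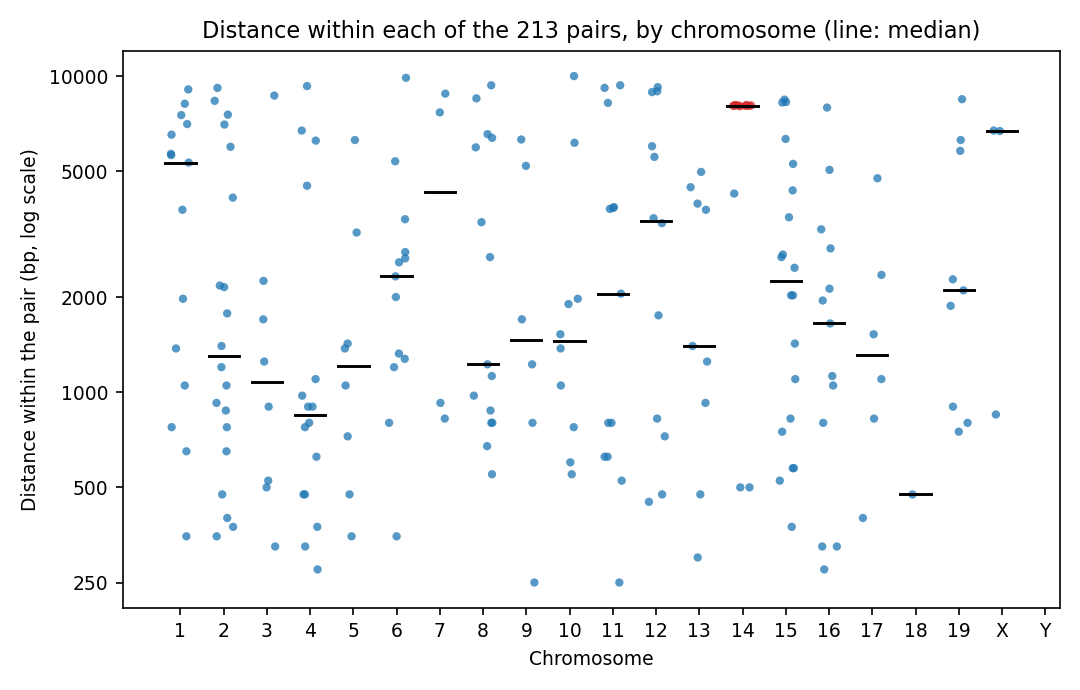
Distance within each of the 213 pairs (bp, log scale) by chromosome; each point is a pair, the black line is the median of the chromosome, and red points are the 9 chromosome 14 pairs of like distance. Over all chromosomes the points run from 250 to 10000 bp, and the red points on chromosome 14 lie between 8025 and 8100 bp.

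Chromosome 14 stood apart by a distance that recurred. Of its 12 pairs, 9 had starts 8025 to 8100 bp apart, a range of 75 bp on a grid of 25 bp. The other 3 pairs had distances of 500, 500 and 4250 bp. No neighbouring windows on any other chromosome started 8025 to 8125 bp apart, while chromosome 14 had 11 such distances. This range was taken from the chromosome 14 distances themselves, with 25 bp added above, so its filling there is a description. The whole list had 27 distances from 8 to 9 kb, so the absence elsewhere says little by itself. In all, 8 of the 9 pairs fell in the first block of the chromosome that held windows, from 3272126 to 8235175 (4.96 Mb).

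In order along the chromosome, the pairs of this block began at 3272126, 3619526, 3858926, 3996976, 4698326, 5043276, 7166501 and 8226901. Their distances were 8050, 8050, 8025, 8075, 8050, 8075, 8100 and 8075 bp in the same order. The ninth pair lay farther along, at chr14:20306076-20314375, with 8100 bp. In this stretch of 4.96 Mb the list held 23 windows, of which 16 belonged to these 8 pairs, 3 to a run of 3 and 4 were single. The run of 3, from 7490651 to 7507025, had distances of 8050 and 8125 bp between its neighbours, so it carried the same spacing over 1 more window.

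All 4 single windows of this block lay 20 to 27 kb from one of these loci. The windows from 7469926 and from 8206176 each started 20725 bp before the first window of the run of 3 and of the last pair of the block, the same offset at both. The windows from 3306651 and from 4026476 lay on the other side, starting 34525 and 29500 bp after the first window of the first and of the fourth pair. The other 6 loci, all of them pairs, had no further window in this range. The arrangement of the chromosome 14 windows is thus a description of 10 loci that share 1 spacing, and the 9 pairs among them may not be independent members. Whether the loci share sequence was not tested, because no mm9 sequence was used here.

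**Figure D3:**
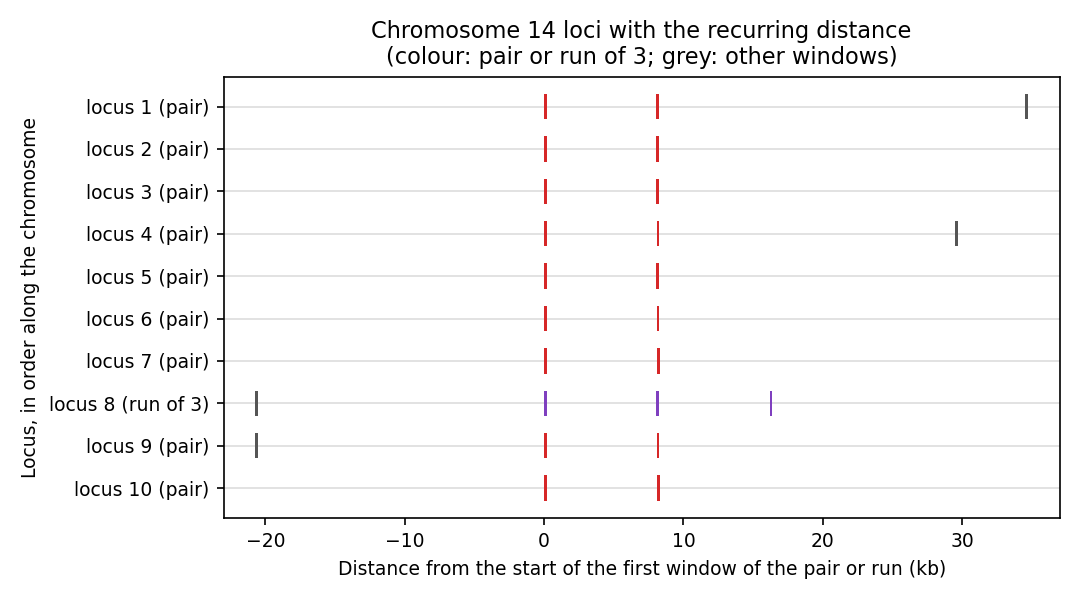
Windows around the 9 pairs and the run of 3 on chromosome 14 that share the recurring distance. They are drawn to scale from the start of the first window of each locus (kb). Windows were sought from 30 kb before to 40 kb after that start. The second window falls 8025 to 8100 bp from the first in all 10 loci, and 2 loci have a further window 20725 bp before the first.

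Outside chromosome 14, wide pairs of like distance on the same chromosome were few. Among pairs of 5 kb or more, 38 of the 119 combinations of 2 pairs on the same chromosome (31.9%) had distances within 50 bp of each other, against 31 of the 1651 combinations on different chromosomes (1.88%). Without the 9 chromosome 14 pairs these were 4 of 83 (4.82%) and 31 of 1192 (2.60%). Of the combinations on the same chromosome that began within 1 Mb of each other, 2 of 7 (28.6%) were then alike. That is too few combinations to place the share closely. This comparison was set up after the chromosome 14 distances had been seen. Of the 4, 3 lay within 2 Mb. On chromosome 12, the pairs at 55811226-55820375 and 55830526-55839625 had distances of 8950 and 8900 bp and began 19.3 kb apart. They were the closest neighbouring pairs of the list, with 10.15 kb between them, just over the joining limit. On X, the pairs at 121395576-121402475 and 122060351-122067275 had distances of 6700 and 6725 bp and began 664.8 kb apart. These are 2 of the 3 pairs on X; the other, from 32017576, had a distance of 850 bp. On chromosome 15, pairs with distances of 8275 and 8250 bp began at 78125676 and 80086351.

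Taken as a whole, pairs lay nearer to further windows than single windows did. Pairs under 1 kb apart differed less from single windows, as given below. The median gap from a pair to the nearest window outside it was 127.6 kb (95% interval 91.7 to 157.1 kb, 213 pairs), with quartiles of 44.4 and 316.4 kb. From a single window to the nearest other window it was 186.5 kb (168.3 to 197.7 kb, 2413 windows), with quartiles of 68.7 and 487.5 kb. By construction neither gap can be 10 kb or less. Another window lay within 100 kb of 95 of the 213 pairs, or 44.6% (37.8 to 51.5%), and of 824 of the 2413 single windows, or 34.1% (32.3 to 36.1%). Within 20 kb the shares were 12.2% (8.13 to 17.4%) and 5.72% (4.83 to 6.72%). Within 1000 kb they were 93.4% (89.2 to 96.4%) and 89.3% (88.0 to 90.5%).

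The difference did not hold on every chromosome, and its largest part came from chromosome 15. The share with a window within 100 kb was higher for pairs than for single windows on 13 of the 19 autosomes, and the median gap was shorter on 12. On chromosome 15 it was 16 of 20 pairs (80%) against 46.1% of single windows. Without that chromosome the shares were closer, 40.9% of 193 pairs and 33.3% of 2261 single windows. No interval was computed for these shares, so whether they differ beyond counting is open. When the single windows were weighted to the chromosome make-up of the pairs, their share was 34.9%, so the numbers of pairs on window-rich chromosomes moved it little. The share was lower for pairs on chromosomes 1, 7, 8, 12, 17 and 18. On chromosome 8 it was 33.3% of its 15 pairs and 52.3% of its single windows. On chromosome 7 it was 0 of 4 pairs and 29.7% of single windows, and on chromosome 1 20% of 15 pairs and 30.4% of single windows. Without the 9 chromosome 14 pairs, 45.1% of 204 pairs had a window within 100 kb. These pairs and windows share chromosomes and neighbours, and no test of the difference was made.

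**Figure D4:**
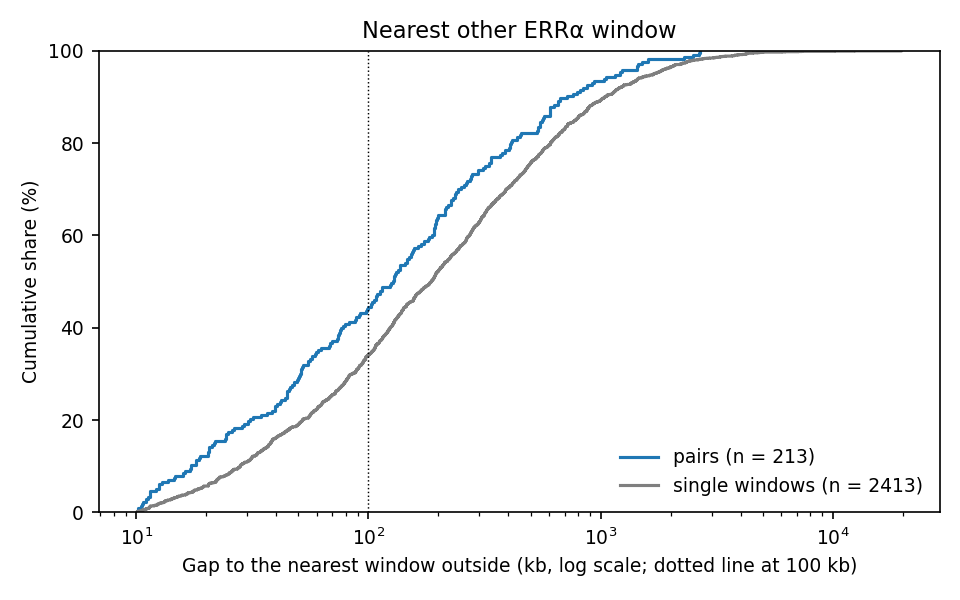
Cumulative share of pairs (blue, n = 213) and of single windows (grey, n = 2413) by the gap to the nearest other window (kb, log scale), with a dotted line at 100 kb. At that line the blue curve stands at 44.6% and the grey curve at 34.1%.

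The closest surroundings of a pair were seldom crowded. Windows within 100 kb on both sides were found for 17 of the 211 pairs with windows on both sides (8.06%, 4.76 to 12.6%) and for 134 of 2373 such single windows (5.65%, 4.75 to 6.65%). The number of other runs within 1 Mb had a median of 4 for pairs and 3 for single windows, with means of 4.44 and 3.63. The run nearest to a pair was a single window in 177 cases, another pair in 26 and a longer run in 10. Another pair was thus the nearest run for 12.2% of pairs (8.13 to 17.4%), and for 7.58% of single windows (6.56 to 8.71%). Without the 9 chromosome 14 pairs it was 22 of 204 pairs (10.8%, 6.88 to 15.9%). The median gap from a pair to the nearest other pair was 2260 kb, and 18 of 212 pairs had another pair within 100 kb.

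The surroundings were also compared between close and wide pairs. The median gap to the nearest outside window was 176.9 kb (98.3 to 225.8 kb) for the 76 pairs under 1 kb, 102.1 kb (54.9 to 147.1 kb) for the 77 pairs of 1 to 5 kb and 124.7 kb (54.9 to 196.2 kb) for the 60 wider pairs. The 3 intervals overlap. Across the 213 pairs, the distance within the pair and the gap outside it had a Spearman rho of -0.11, a description over pairs that share chromosomes and neighbours.

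The 3 most isolated pairs were all under 1.5 kb wide. On chromosome 6 the pair at 66963601-66965075 had a distance of 1275 bp and no other window within 2676 kb. On chromosome 5 the pair at 45682601-45683850 had 1050 bp and a nearest window at 2646 kb. The pair on chromosome 18 at 78012651-78013325, the one pair of that chromosome, had 475 bp and a nearest window at 2486 kb. These are places where 2 windows lay side by side in megabases without another. The least isolated pairs were both pairs on chromosome 12 named above and the pair on chromosome 15 at 82194226-82196450, with 2025 bp within it and another window 10.45 kb away.

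On chromosome 15, 11 of the 20 pairs lay between 76729601 and 85382075, a stretch of 8.65 Mb chosen after the positions had been seen. It also held 26 of the 152 single windows of the chromosome. Pairs made up 11 of its 37 runs of 1 or 2 windows (29.7%, 15.9 to 47.0%). The share was 11.6% on chromosome 15 and 8.11% over all chromosomes. The stretch was bounded by pairs, so its share is a description alone. The distances within these 11 pairs ran from 375 to 8275 bp. Among them are the pairs of 8275 and 8250 bp named above, and pairs of 575 and 525 bp. No share of like distances was computed for this stretch. Over all pairs but the 9 of chromosome 14, distances within 50 bp of each other were found in 2.86% of combinations on the same chromosome. On different chromosomes they were found in 3.18%. Among pairs of 5 kb or more these were 4.82% and 2.60%.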

How the data were processed

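ERRα ChIP-seq of C2C12 myotubes was deposited as 1 peak list for 1 immunoprecipitated and 1 input library. Per the submitters' processing notes, reads were aligned with Bowtie 0.12.7 on mm9. The sources used here do not say how peaks were called or filtered. The authors' deposited list holds positions (chromosome, start, end) and no count or score, so the depth and the strength of each window are unknown. A caller that splits or merges broad regions would change the number of pairs.

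Windows were sorted and joined when the next start minus the previous end was at most 10000 bp, and runs of exactly 2 were kept. The pairs and the lists of named items were chosen with earlier results of these data known. Named pairs were the 5 shortest and 5 longest (ties by position), the median one, the 3 nearest to and 3 farthest from another window, the closest 2 neighbouring pairs, and those at the joining limit; named chromosomes had the most and fewest pairs and the highest and lowest share. The chromosome 14 pairs, pairs of like distance, the stretch on chromosome 15, and chromosomes 1, 4, 7, 8, 13 and 17 were named after their values were seen. No mm9 sequence or annotation was used, so the planned motif and gene comparisons were not made. Scripts ran on Python 3.11.15 with matplotlib 3.10.9, scipy 1.17.1, pandas 2.3.3 and numpy 2.4.6, and the search for pairs was tested on simulated data.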

Additional observations from a re-analysis of the deposited data

How the results depend on the processing

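The joining distance set several values. At 5 kb the share of windows in pairs was 10.6%, the median distance within pairs 1050 bp, the share of pairs under 1 kb 48.0% and of pairs of 5 to 10 kb 1.17%, while single windows had a median gap of 159.4 kb and 38.0% of them had a window within 100 kb. At 20 kb the share of windows in pairs was 14.8%, the median distance 3537.5 bp, the share of pairs under 1 kb 28.2%, the median gap of single windows 204.0 kb and their share within 100 kb 30.2%. The limit itself decides which distances can enter. The number of pairs was 171 at 5 kb and 238 at 20 kb. Pairs lay nearer to other windows than single windows did at each of the 3 limits, with 49.1% and 38.7% of pairs within 100 kb at 5 and 20 kb. Autosomes alone, joining by starts, leaving out 1 Mb around long runs, and leaving out the 9 chromosome 14 pairs (an alternative chosen after seeing the data) moved none of the 10 values beyond its interval, or by over 1.5 times for counts. Joining by starts and leaving out 1 Mb around long runs both left 213 pairs, with the same median distance and median gap. Neither of them therefore probed the values of pairs. Leaving out the 3 pairs on X or the 9 chromosome 14 pairs could not move a count by over 1.5 times. Leaving out the 9 pairs also kept the single windows as they were, so their values could not move. The median distance without the 9 pairs was 1525 bp. The motif and transcription start alternatives were not run, since no mm9 sequence or annotation was used here. No paired analysis was possible because immunoprecipitate and input are single libraries. Depth is unknown, so a single window may have a neighbour that was missed.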
